A study of Homo sapiens with 4 samples.

Results

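The 33 genes described here encode the subunits of RNA polymerase I, II and III. They were taken by symbol, as every protein-coding gene whose name begins with POLR1, POLR2 or POLR3 followed by a letter, and they were 33 of the 64252 genes in the count table. The symbol rule uses no measured value, though the gene family was picked with earlier results of these data known. Each of the 33 had enough counts to be tested. Total RNA was sequenced from cells labelled NB4, a promyelocytic leukemia line with the PML-RARa fusion. The cells had been exposed for 24 h to 8 μM dBET1 (2 libraries) or to DMSO, its solvent (2 libraries). dBET1 links a ligand of the BET bromodomain proteins to a ligand of CRBN, an E3 ligase adaptor, and so marks BET proteins for degradation. No other genotype or agent is given for either group. The labels do not say whether the libraries of a group came from separate cultures, so the p-values measure the spread between these libraries, which may be technical.

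RNA polymerase I makes the large ribosomal RNA precursor, RNA polymerase II makes messenger RNA, and RNA polymerase III makes transfer RNA, the smallest ribosomal RNA and other short RNAs. Each enzyme has a large and a somewhat smaller catalytic subunit of its own, a stalk, a zinc-ribbon subunit and, in RNA polymerase I and III, further subunits that act in initiation. A set of small subunits is common to all the enzymes, and a pair of assembly subunits is common to RNA polymerase I and III. Growing leukemia cells depend on ribosome and transfer RNA synthesis, in which MYC is a known regulator of RNA polymerase I and III.

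The libraries held 28019956 to 34685645 counts and 24589 to 28356 genes with a count. Granule genes of promyelocytes (AZU1, CTSG, ELANE, MPO and PRTN3) together gave 15 to 17 counts in a DMSO library and 25 to 55 in a dBET1 library, and ELANE and CTSG were at 0 in all of them. Erythroid genes (GATA1, KLF1, EPOR and 5 globin genes) were all detected and summed to 176575 and 185356 counts with DMSO and to 94383 and 94489 with dBET1. The defining granule markers of NB4 were therefore near 0, and the cells are named only as labelled. The erythroid sum moved in the same direction as most subunit genes, and its part in their change was not tested. In bulk RNA, fewer cells of a type and less RNA per cell cannot be told apart.

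Most subunit genes of all 3 enzymes were lower after dBET1. At an adjusted p under 0.05 (edgeR quasi-likelihood test, Benjamini-Hochberg adjustment over 17971 genes), 27 of the 33 fell and 2 rose, POLR2A and POLR3GL. The call did not reach the threshold for POLR1D, POLR2M, POLR3B and POLR2J2. Of all tested genes 27.6% fell and 28.0% rose, and of the 9724 tested genes that averaged at least 10 CPM (the count per library scaled to a common depth with TMM factors) 42.9% fell. Of the 31 members at or above that level, 26 fell. The median log2 fold change was -0.69 over the 33 members, 0.048 over all tested genes and -0.19 over tested genes averaging at least 10 CPM.

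A fall past a log2 fold change of -1 was seen for 10 members: POLR1H, POLR1G, POLR2F, POLR3G, POLR3K, POLR2I, POLR2E, POLR2L, POLR1C and POLR2H. That share was 8.54% of all tested genes and 10.3% of those averaging at least 10 CPM, where 9 of the 31 members passed. No member rose past a log2 fold change of 1 in edgeR, at any p, or in DESeq2, since the highest was 0.76 (POLR3GL), against 16.9% of all tested genes. Both dBET1 libraries lay below both DMSO libraries for 29 members (37.4% of all tested genes) and above them for 2 (41.9%). The groups overlapped for POLR1D and POLR2M. With libraries scaled by total counts alone, 25 members fell and 6 fell past the limit, while the median of all tested genes moved from 0.048 to 0.26.

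Summed over the 33 genes, the level was 3711 and 3722 CPM under DMSO against 2516 and 2451 CPM under dBET1. POLR2A carried a large part of this sum. Without it the sums were 3114 and 3190 CPM with DMSO and 1826 and 1795 CPM with dBET1.

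**Figure D1:**
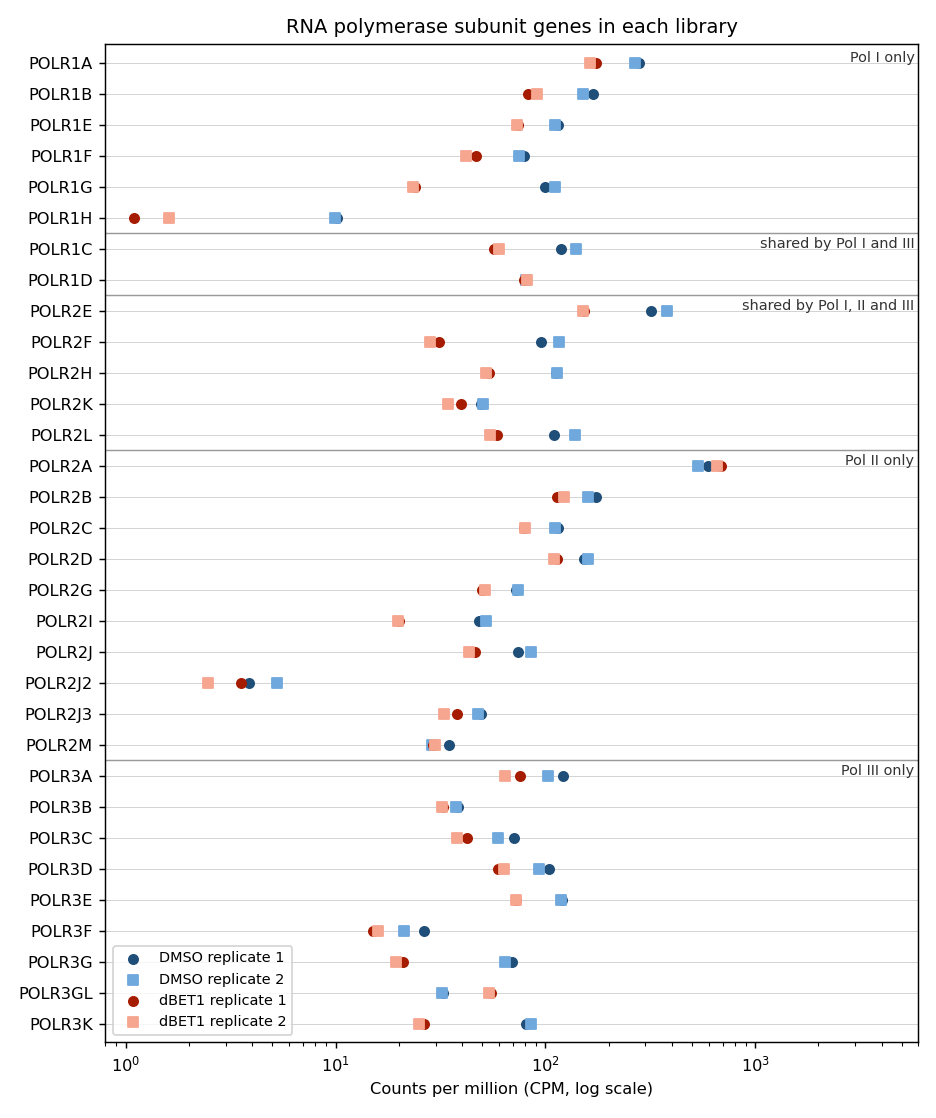
Level of 32 of the 33 subunit genes in CPM on a log axis, grouped by enzyme; circles are replicate 1 and squares replicate 2, blue for DMSO and red for dBET1. The dBET1 points lie to the left of the DMSO points for 28 of the genes drawn, to the right for POLR2A and POLR3GL, and overlap with them for POLR1D and POLR2M.

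All 6 genes of RNA polymerase I alone fell, with a median log2 fold change of -0.84. Of all tested genes 27.6% fell, and of those averaging at least 10 CPM 42.9% fell. The summed level of the 6 genes was 751 and 726 CPM under DMSO against 403 and 394 CPM under dBET1. The catalytic pair was lower by similar amounts. POLR1A, the largest subunit, was at 278 and 267 CPM with DMSO and at 174 and 163 CPM with dBET1 (log2 fold change -0.70, SE 0.07, adjusted p = 0.000175). POLR1B, its catalytic partner, went from 170 and 151 CPM to 82.7 and 90.8 CPM (-0.89, SE 0.09). POLR1F, a stalk subunit, fell with a log2 fold change of -0.79 and POLR1E of -0.62.

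POLR1H and POLR1G changed by the largest factors of the 33 genes. POLR1H (chr6:30058899-30064909, plus strand, GRCh38) encodes the zinc-ribbon subunit that takes part in RNA cleavage by the stalled enzyme. It had 330 and 278 counts under DMSO against 33 and 49 under dBET1, or 10.1 and 9.89 CPM against 1.10 and 1.61 CPM. The log2 fold change was -2.88 (SE 0.25, adjusted p = 6.78e-05), a level 7.37-fold lower, and the dBET1 libraries were far below the DMSO libraries.

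POLR1G (chr19:45406644-45410737, plus strand) encodes the partner of POLR1E in a dimer of RNA polymerase I that binds initiation factors. It went from 99.4 and 111 CPM to 23.9 and 23.4 CPM (log2 fold change -2.16, SE 0.10, adjusted p = 7.91e-06), 4.46-fold lower. Its dimer partner POLR1E went from 115 and 112 CPM to 74.4 and 73.4 CPM, so the genes of the dimer were at like CPM with DMSO and apart with dBET1. Exons of ERCC1, on the opposite strand, cover 49.8% of the exonic bases of POLR1G, and the strand setting of the counting is not given in the sources used here. The log2 fold change of ERCC1 was -0.43. POLR1HASP, antisense to POLR1H over 24.5% of its exonic bases, had a log2 fold change of 0.25 (adjusted p = 0.406).

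**Figure D2:**
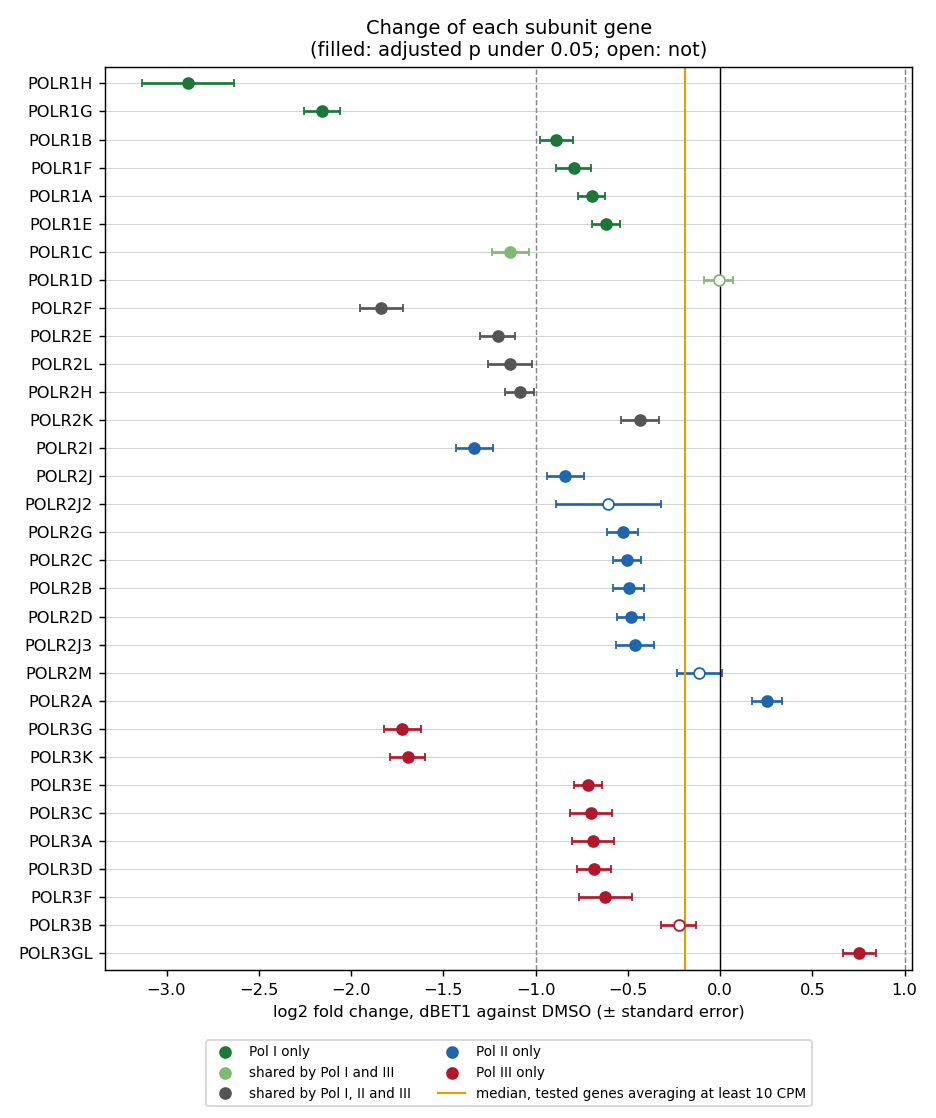
Log2 fold change of 32 of the 33 subunit genes, dBET1 against DMSO, with its standard error, coloured by enzyme; filled points have an adjusted p under 0.05, dashed lines mark a log2 fold change of -1 and 1, and the orange line is the median of tested genes averaging at least 10 CPM (-0.19). POLR1H at -2.88 and POLR1G at -2.16 lie farthest to the left, and POLR3GL at 0.76 farthest to the right.

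The small subunits common to RNA polymerase I, II and III all fell, 4 of the 5 past a log2 fold change of -1, and their median was -1.14. Of tested genes averaging at least 10 CPM, 42.9% fell and 10.3% fell past that limit. The sum of the 5 subunits went from 684 and 799 CPM to 335 and 320 CPM. POLR2F, a subunit at the base of the clamp, fell most among them. It was at 95.3 and 116 CPM with DMSO and at 31.0 and 28.3 CPM with dBET1 (log2 fold change -1.84, SE 0.12, adjusted p = 2.1e-05). POLR2E, which forms part of the jaw, had the highest CPM of the group, at 318 and 380 with DMSO and 152 and 151 with dBET1 (-1.21, SE 0.10). POLR2L, a small zinc-binding subunit, went from 110 and 139 CPM to 58.6 and 54.3 CPM (-1.14, SE 0.12), and POLR2H from 112 and 113 CPM to 53.8 and 52.2 CPM (-1.09, SE 0.08). For these genes the highest dBET1 value was well below the lowest DMSO value. Exons of CD151, on the opposite strand, cover 22.8% of the exonic bases of POLR2L. CD151 itself had a log2 fold change of -0.53, and its part in the counts of POLR2L was not tested.

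POLR2K, another small zinc-binding subunit, was the member of the group that changed least. It was at 49.5 and 50.5 CPM with DMSO and at 39.7 and 34.3 CPM with dBET1 (log2 fold change -0.43, SE 0.10, adjusted p = 0.00841). Its call was lost without dBET1 replicate 2 (adjusted p = 0.115) and with total counts alone (0.101).

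The assembly pair of RNA polymerase I and III did not move together. POLR1C (chr6:43509702-43562419, plus strand) went from 118 and 139 CPM to 57.1 and 60.0 CPM (log2 fold change -1.14, SE 0.10, adjusted p = 7.13e-05). POLR1D (chr13:27620742-27744237, plus strand), with which it forms a dimer in both enzymes, was at 80.7 and 80.9 CPM with DMSO and at 78.9 and 81.9 CPM with dBET1. Its log2 fold change was -0.0066 (SE 0.08, adjusted p = 0.951), and it was above 0 with total counts alone (0.20), with at least 10 counts required in every sample (0.064), with counts divided by 2 (0.026) and without dBET1 replicate 1 (0.014). The POLR1C to POLR1D ratio of CPM was 1.47 and 1.72 with DMSO and 0.724 and 0.733 with dBET1. Per kb of transcript the ratio was 0.798 and 0.936 with DMSO and 0.394 and 0.398 with dBET1, so per kb POLR1C was the lower of the pair in every library and lay further below POLR1D with dBET1. This ratio was chosen after its values were seen. With 2 libraries in each group, the exact permutation test, two-sided, cannot give a p below 0.33, and it gave that value for each ratio described here.

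RNA polymerase II differed within itself. Of the 10 genes counted here as its own, 7 fell (70%) and 1 rose, with a median log2 fold change of -0.50. POLR2I alone fell past a log2 fold change of -1, a share of 10%. Of tested genes averaging at least 10 CPM, 42.9% fell and 10.3% fell past that limit. POLR2A (chr17:7484366-7514616, plus strand), which encodes the largest subunit with its heptad-repeat tail, was at 596 and 532 CPM with DMSO and at 690 and 656 CPM with dBET1. Both dBET1 libraries were above both DMSO libraries by a modest step (log2 fold change 0.25, SE 0.08, adjusted p = 0.027). The adjusted p of POLR2A was 0.24 without dBET1 replicate 1, 0.127 without dBET1 replicate 2 and 0.152 with no count filter. The log2 fold change stayed above 0 in each of the alternatives run, from 0.14 without DMSO replicate 2 to 0.46 with total counts alone.

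POLR2B, the other catalytic subunit, went the opposite way, from 174 and 160 CPM to 114 and 122.7 CPM (log2 fold change -0.50, SE 0.08, adjusted p = 0.00159). The POLR2A to POLR2B ratio of CPM, chosen after its values were seen, was 3.42 and 3.32 with DMSO and 6.04 and 5.35 with dBET1, a change of 0.75 on the log2 scale. The log2 ratio of POLR1A to POLR1B, the matching pair of RNA polymerase I, changed by 0.19, and that of POLR3A to POLR3B, of RNA polymerase III, by -0.46.

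Of the remaining subunits of RNA polymerase II, POLR2J and POLR2I fell further than the others. POLR2C, an assembly subunit, and POLR2D and POLR2G, which form the stalk, had log2 fold changes of -0.50, -0.48 and -0.53. POLR2J, the dimer partner of POLR2C, went from 74.3 and 85.4 CPM to 46.1 and 43.1 CPM (-0.84, SE 0.10, adjusted p = 0.000309). POLR2I (chr19:36113709-36115213, minus strand), the zinc-ribbon subunit, fell from 48.2 and 52.0 CPM to 20.0 and 19.8 CPM (-1.33, SE 0.10, adjusted p = 3.71e-05). Exons of TBCB, on the opposite strand, cover 19.1% of its exonic bases, and TBCB itself had a log2 fold change of -1.08. A further unnamed opposite-strand gene covers 69% of them and had a log2 fold change of 0.036 (adjusted p = 0.967).

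Of the 3 other genes of this group, POLR2J2 and POLR2J3 are near-identical copies of POLR2J, and reads may be split among them. POLR2J2 was low, at 3.86 and 5.27 CPM with DMSO and 3.53 and 2.46 CPM with dBET1, and did not pass (log2 fold change -0.61, adjusted p = 0.107), though it did without DMSO replicate 1 (-0.84, adjusted p = 0.0303). POLR2J3 had a log2 fold change of -0.46 (adjusted p = 0.00661), and its call was lost with total counts alone (adjusted p = 0.0765) and without dBET1 replicate 2 (0.0917). POLR2M, an accessory protein that binds RNA polymerase II, was at 34.9 and 28.7 CPM with DMSO and at 29.1 and 29.7 CPM with dBET1. Its groups overlapped (log2 fold change -0.11, adjusted p = 0.458), and its log2 fold change was 0.095 with total counts alone and 0.0086 without DMSO replicate 1. Without DMSO replicate 2 it was -0.28 and passed (adjusted p = 0.0392). Without these copies and POLR2M, 6 of 7 genes fell and the median was -0.50.

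RNA polymerase III had 8 of its 10 genes lower (80%, beside 42.9% of tested genes averaging at least 10 CPM) and 1 higher. Its median log2 fold change was -0.69. POLR3A, the largest subunit, went from 122 and 103 CPM to 75.5 and 64.3 CPM (log2 fold change -0.69, SE 0.11, adjusted p = 0.00158). POLR3B, its catalytic partner, was at 38.5 and 37.3 CPM with DMSO and at 32.7 and 32.3 CPM with dBET1. The libraries of POLR3B did not overlap between groups, and its call missed the threshold (log2 fold change -0.22, SE 0.09, adjusted p = 0.0771), though it passed without DMSO replicate 2 (0.0323). POLR3D and POLR3E, which form a dimer, had log2 fold changes of -0.68 and -0.72. POLR3K (chr16:46407-53608, minus strand), the zinc-ribbon subunit used in termination, went from 80.7 and 85.8 CPM to 26.5 and 24.9 CPM (-1.69, SE 0.09, adjusted p = 1.3e-05).

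The initiation subcomplex of RNA polymerase III holds POLR3C, POLR3F and either POLR3G or POLR3GL, which are paralogs that take the same place in the enzyme. POLR3G is known as the form of pluripotent and many transformed cells, and POLR3GL is broadly expressed. POLR3C had a log2 fold change of -0.70 and POLR3F of -0.62. POLR3G (chr5:90471748-90514557, plus strand) was at 69.6 and 64.0 CPM with DMSO and at 21.0 and 19.5 CPM with dBET1 (log2 fold change -1.72, SE 0.10, adjusted p = 1.48e-05). POLR3GL (chr1:145964690-145978848, plus strand) was at 32.5 and 32.3 CPM with DMSO and at 55.2 and 54.1 CPM with dBET1 (0.76, SE 0.09, adjusted p = 0.000272). The paralogs thus moved in opposite directions, and neither gene's groups overlapped.

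POLR3G made up 68.2% and 66.5% of the CPM of the pair under DMSO, against 27.6% and 26.4% under dBET1. Per kb of transcript, POLR3G made up 43.4% and 41.5% of the pair with DMSO and 12.0% and 11.4% with dBET1. Per kb, POLR3GL was thus the higher of the pair in every library. The log2 ratio of POLR3G to POLR3GL was 1.10 and 0.99 with DMSO and -1.40 and -1.48 with dBET1, a change of -2.48 or 5.57-fold (exact permutation test, two-sided, p = 0.33). Leaving out each library in turn gave changes of -2.53 to -2.42. The sum of the pair went from 102 and 96.3 CPM to 76.2 and 73.6 CPM.

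POLR3GL lies beside genes that also changed. ANKRD34A starts 115 bp from it on the opposite strand and had a log2 fold change of 1.01 (adjusted p = 0.00817). TXNIP, 13587 bp away on its other side, had one of 3.04 (adjusted p = 1.09e-06). RBM8A, 37012 bp away, had a log2 fold change of -0.64 (adjusted p = 0.000226). These neighbours were looked at after the values of POLR3GL were seen, and their part in its change was not tested.

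**Figure D3:**
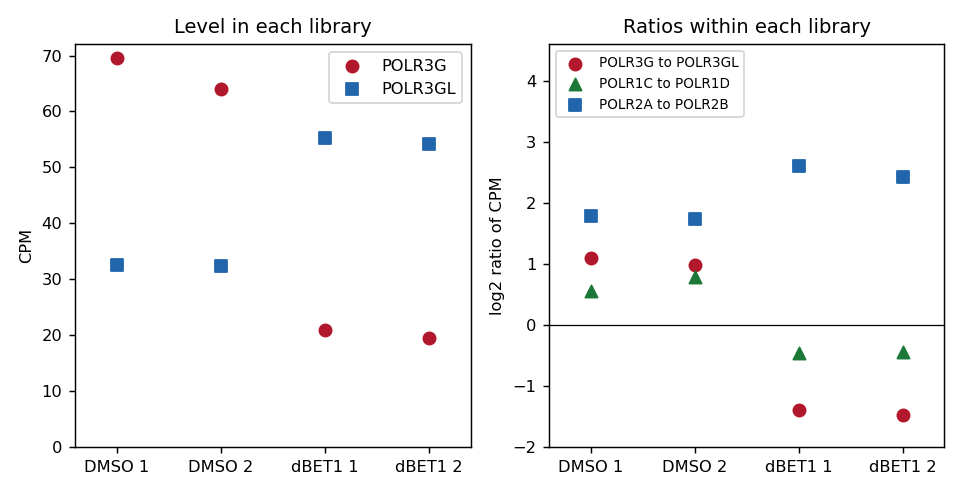
Left, CPM of POLR3G (circles) and POLR3GL (squares) in each library; right, log2 ratio of CPM within each library for POLR3G to POLR3GL, POLR1C to POLR1D and POLR2A to POLR2B. In CPM, POLR3G lies above POLR3GL in both DMSO libraries and below it in both dBET1 libraries. Per kb of transcript, POLR3G was the lower of the pair in every library. The log2 ratio of that pair in CPM goes from 1.10 and 0.99 to -1.40 and -1.48.

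Set side by side by place in the enzyme, a grouping made after the values were seen, the zinc-ribbon subunits were among the lowest. POLR1H at -2.88 and POLR2I at -1.33 had the lowest log2 fold change among the genes of their own enzyme, and POLR3K at -1.69 came next to POLR3G at -1.72. The zinc-ribbon genes have short canonical transcripts: 0.851 kb for POLR1H, 0.443 kb for POLR2I and 1.372 kb for POLR3K. Of coding genes averaging at least 10 CPM, 23.0% of those under 1.5 kb fell past -1, beside 8.31% of the longer ones. The part of length in this pattern was not tested. The largest subunits POLR1A and POLR3A were alike at -0.70 and -0.69, and POLR2A was at 0.25. The stalk subunits POLR1F and POLR2G were at -0.79 and -0.53. Of the assembly dimers, POLR1C and POLR1D had log2 fold changes of -1.14 and -0.0066, and POLR2C and POLR2J of -0.50 and -0.84. The log2 ratio of POLR2C to POLR2J changed by 0.33, and reads of POLR2J may be split with its copies.

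**Figure D4:**
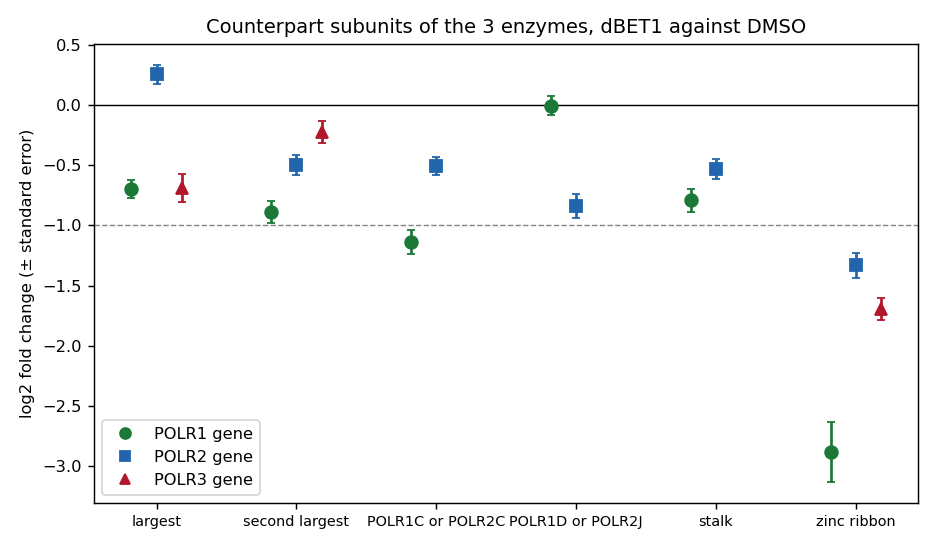
Log2 fold change with standard error of subunits that hold the same place in the different enzymes; circles are POLR1 genes, squares POLR2 genes and triangles POLR3 genes, and the dashed line marks -1. Each of the 3 zinc-ribbon genes lies below -1, and among the largest subunits POLR2A alone lies above 0.

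Levels between genes were compared as CPM per kb of the canonical transcript. With DMSO the highest mean level per kb was that of POLR2L (142 ± 23.1, SD, n = 2), followed by POLR2E (122 ± 15.6), POLR1D (116.5 ± 0.23) and POLR2I (113 ± 5.99). POLR2E, POLR1D and POLR2I did not differ beyond their spread, nor did POLR2L from POLR2E. The range of POLR2L lay just above that of POLR1D. Exons of CD151 overlap those of POLR2L on the opposite strand, so the level of POLR2L is uncertain. With dBET1 the order was POLR1D (116 ± 2.99) and POLR2A (106.6 ± 3.73), then POLR2L (64.4 ± 3.47) and POLR2G (64.1 ± 1.89). POLR2L and POLR2G did not differ beyond their spread. POLR2A moved from the 7th to the 2nd place of 33, and POLR3GL from the 20th to the 7th. POLR1H had the lowest level per kb with dBET1 (1.59 ± 0.42), and the next lowest was POLR2J2 (6.05 ± 1.54). With DMSO the lowest was POLR2M (7.73 ± 1.06), which did not differ beyond the spread from POLR2J2 (9.22 ± 2.01).

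Transcript length moved with part of these values. Over the 8759 coding tested genes averaging at least 10 CPM, Spearman's rho between canonical transcript length and log2 fold change was 0.30, and over the 33 members it was 0.12. Length also went with the difference between the DMSO libraries: rho between length and the log2 ratio of DMSO replicate 2 to replicate 1 was -0.52 over those coding genes and -0.56 over the members. These correlations are across genes, which share the same 4 libraries and are not independent replicates. The 12 members with a transcript under 1.5 kb had a median log2 fold change of -0.72, and the other 21 had -0.69. Over the coding genes the same medians were -0.57 and -0.16. Of the short members 5 of 12 fell past the limit, and of the long members 5 of 21, beside 23.0% of the short and 8.31% of the long coding genes. The part of length in the members' change was not tested.

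Promoter sequences of RefSeq (GRCh38.p14, 250 bases before to 50 after each start) were found for 24 of the 33 members. They were searched on both strands for CACGTG, the palindromic E-box that MYC with MAX can bind. It was found in 4 of the 24 (16.7%): POLR1G, POLR3A, POLR3C and POLR3E. It was in 7.26% of all 35116 promoter windows, and in 13.8% of the 7299 coding genes averaging at least 10 CPM with a promoter, so the members' share was near that background. The median log2 fold change was -0.71 for the 4 members with the motif and -0.66 for the 20 without. A match is a description of these letters and does not show a bound site. The stretches around the 4 matches are printed 5′ to 3′ on the gene's strand, with the motif in capitals, because they are the members' promoters that hold it.
POLR1G: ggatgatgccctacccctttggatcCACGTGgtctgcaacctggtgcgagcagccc
POLR3A: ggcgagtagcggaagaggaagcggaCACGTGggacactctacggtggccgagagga
POLR3C: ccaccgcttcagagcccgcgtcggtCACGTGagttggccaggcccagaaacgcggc
POLR3E: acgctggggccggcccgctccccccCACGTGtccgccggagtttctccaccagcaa
The POLR1G stretch is chr19:45406607-45406662 (plus strand), with the motif's first base at position -12 from the start site. The POLR3A stretch is chr10:78029520-78029575 (minus strand, position -35). The POLR3C stretch is chr1:145823979-145824034 (plus strand, position -196), and the POLR3E stretch is chr16:22297383-22297438 (plus strand, position -1). POLR1G fell with a log2 fold change of -2.16, and POLR3A, POLR3C and POLR3E lay between -0.72 and -0.69.

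Genes that work with the polymerases were also mostly lower. Of 65 partner genes, all of them tested, 42 fell, 1 rose and 8 fell past a log2 fold change of -1, with a median of -0.48. Of the tested genes averaging at least 10 CPM, 42.9% fell and 10.3% fell past that limit, so the share of partner genes past it (12.3%) was near the background. With total counts alone 30 partner genes fell and 6 rose. Among 7 factors of RNA polymerase I, 4 fell. RRN3, which joins the enzyme to its promoter factors, had a log2 fold change of -0.71 (adjusted p = 0.00437), and TAF1A, of the promoter selectivity factor, of -0.54 (adjusted p = 0.0294). Its fellow subunits TAF1B and TAF1D were at 0.21 (adjusted p = 0.239) and 0.13 (adjusted p = 0.158).

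Of 19 general factors of RNA polymerase II, 13 fell (68.4%, beside the 42.9% of tested genes averaging at least 10 CPM). The lowest were GTF2F2, a subunit of TFIIF, which went from 43.6 and 42.4 CPM to 19.6 and 20.8 CPM (log2 fold change -1.09), and GTF2H2, a subunit of TFIIH, at -0.996. GTF2H2 has near-identical copies, so its counts are uncertain. GTF2A1 and CDK7 were the highest at 0.17 and 0.0013 and did not pass. TBP, the TATA-binding protein used with all the enzymes, went from 43.4 and 45.4 CPM to 28.2 and 26.8 CPM (-0.69, adjusted p = 0.000679).

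Of 18 factors of RNA polymerase III, 10 fell (55.6%, beside the 42.9% of tested genes averaging at least 10 CPM). GTF3C6, the smallest subunit of TFIIIC, changed most, from 107 and 115 CPM to 26.4 and 25.1 CPM (log2 fold change -2.11, SE 0.09, adjusted p = 7.28e-06). GTF3A, the factor of the smallest ribosomal RNA, had a log2 fold change of -0.77. Other subunits of TFIIIC were the highest of the list, GTF3C3 at 0.26 (adjusted p = 0.056) and GTF3C1 at 0.14 (adjusted p = 0.166). CRCP, a stalk subunit of RNA polymerase III that the symbol rule leaves out, had a log2 fold change of -0.49 (adjusted p = 0.00258), and MAF1, the repressor of that enzyme, of -0.31 (adjusted p = 0.0173).

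Of 15 genes for assembly of the polymerases, 10 fell (66.7%), 5 of them past a log2 fold change of -1 (33.3% of the 15), and 1 rose. Of tested genes averaging at least 10 CPM, 42.9% fell and 10.3% fell past that limit. The chaperone ATPases RUVBL2 and RUVBL1 were lowest of the 15. RUVBL2 went from 383 and 430 CPM to 137 and 135 CPM (log2 fold change -1.58, SE 0.08, adjusted p = 1.17e-05), and RUVBL1 from 161 and 167 CPM to 63.3 and 62.5 CPM (-1.38). RPAP2, a phosphatase of the RNA polymerase II tail that also takes part in import of the enzyme, rose from 23.2 and 18.4 CPM to 32.9 and 29.9 CPM (0.59, SE 0.14, adjusted p = 0.00815), a call that was lost without dBET1 replicate 1 and with no count filter. PDRG1 was at -0.074 (adjusted p = 0.6). Of 6 genes of mitochondrial transcription, which uses a separate enzyme, 5 fell (83.3%). TFB2M and TFB1M had log2 fold changes of -1.18 and -0.92, TEFM of -0.41, and MTERF1 was at 0.13 and did not pass.

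**Figure D5:**
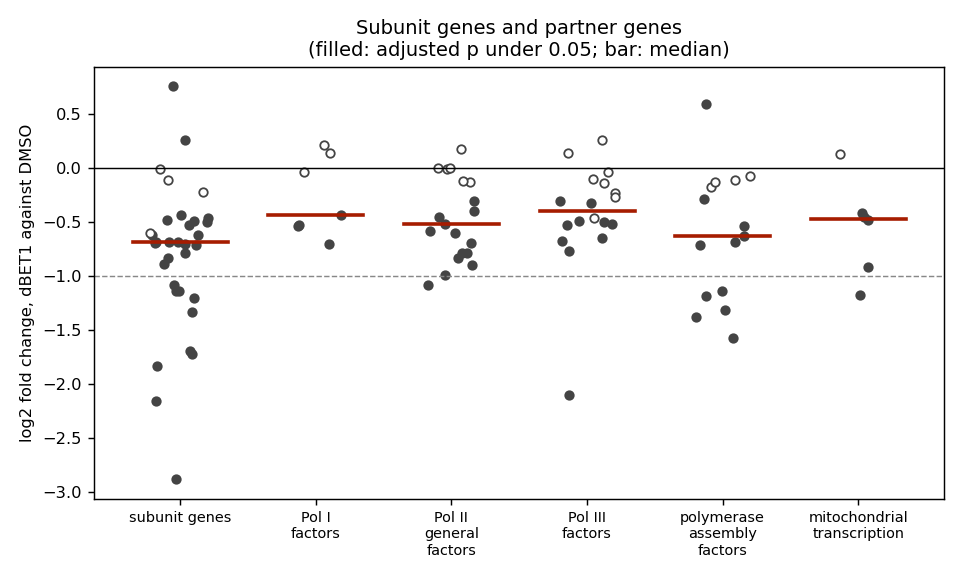
Log2 fold change of the 33 subunit genes and of the 65 partner genes in 5 lists, dBET1 against DMSO; each point is a gene, filled points have an adjusted p under 0.05, red bars are medians and the dashed line marks -1. The subunit genes have a median of -0.69, and the partner lists have medians from -0.63 for assembly factors to -0.40 for factors of RNA polymerase III.

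Of 12 listed transcripts made by RNA polymerase III, RN7SL1 and RN7SL2, the near-identical RNAs of the signal recognition particle, had at least 10 counts in each library of a group. RN7SL2 was at 106 and 181 CPM with DMSO and 50.1 and 58.5 CPM with dBET1 (log2 fold change -1.40, SE 0.22, adjusted p = 0.00124). RN7SL1 was at 42.9 and 45.6 CPM with DMSO and 27.0 and 36.4 CPM with dBET1 (-0.48, SE 0.14, adjusted p = 0.0231). Reads may be split between them. The 8 others found in the table had at most 13 counts in a library, and the 1 of them that was tested, RPPH1, did not pass (log2 fold change 0.31, adjusted p = 0.777). How far the libraries captured these short RNAs was not tested, so no output of RNA polymerase III is read from them. RN7SK and RNY5 were not matched.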

How the data were processed

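RNA-seq was measured in 2 DMSO and 2 dBET1 libraries. The authors aligned 150 bp paired-end reads to hg38 with HISAT2 2.2.0, estimated abundance with StringTie and deposited an unnormalized whole-number count for each gene. How counts were made from the StringTie output, and the strand setting, are not given in the sources used here. Samples and columns were mapped from labels, with 0 columns left out and 0 rows naming no gene. The control columns are headed NC and were taken as the DMSO samples by time and replicate number. Symbols, transcript lengths and coordinates came from GENCODE release 44, which held 56105 of the 64252 identifiers. Totals of 28019956 to 34685645 counts left replicate differences above counting error.

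Counts were filtered with filterByExpr, scaled with TMM factors and compared with edgeR 4.0.16 (quasi-likelihood test, group alone) in R 4.3.3, adjusting p by Benjamini-Hochberg across 17971 genes. The standard error was the log2 fold change divided by the square root of F. The fit was tested on simulated data. Ratios, lengths and promoters were computed in Python. All members, and in each partner list the 2 lowest and the 2 highest log2 fold changes plus TBP, CRCP, MAF1 and RRN3, were named by rule. Members and lists were chosen with earlier results of these data known. Alternatives were DESeq2 1.42.0, its size factors, total counts only, at least 10 counts in every sample, no count filter, counts divided by 2 (in case reads were counted more than once), summed POLR2J copies, a replicate block and each library left out. The values of 1 member, which is counted in all totals, and of some other genes are not reported here.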

Additional observations from a re-analysis of the deposited data

Results flagged for a closer look

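Of 14 non-coding genes with a POLR symbol, which the choice of members leaves out, 3 were tested. At an adjusted p under 0.05, 2 of the 3 rose, beside 28.0% of all tested genes. The other, POLR1HASP, was at 3.463 and 2.918 CPM with DMSO and at 3.965 and 3.636 CPM with dBET1. It also lay above both DMSO libraries and did not pass (adjusted p = 0.406, edgeR). POLR2J4, a non-coding relative of POLR2J (chr7:43940895-44019175, minus strand), was at 237 and 127 counts under DMSO against 353 and 357 under dBET1. Its log2 fold change was 0.99 (SE 0.24, adjusted p = 0.00908, edgeR), and both dBET1 libraries lay above both DMSO libraries. POLR2CP1, a processed pseudogene of POLR2C (chr21:14757588-14758352, plus strand), was at 91 and 40 counts under DMSO against 135 and 119 under dBET1, and a log2 fold change of 0.99 (SE 0.34, adjusted p = 0.0395, edgeR). Reads of these genes may be shared with POLR2J and POLR2C, which fell. With 2 libraries in each group, single outlying libraries were not tested.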

How the results depend on the processing

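With 2 libraries in each group, SDs rest on 2 values. Across the alternatives, 25 to 29 subunit genes fell (26 with the POLR2J copies summed). The median log2 fold change of the subunit genes was -0.73 with DESeq2, -0.62 with at least 10 counts in every sample, -0.66 with counts divided by 2, -0.75 with no count filter and -0.48 with total counts only, and it ran from -0.77 to -0.68 with each library left out. Subunit genes that rose were 2, but 1 with no count filter and 1 to 2 with each library left out, where POLR2A lost its call without either dBET1 replicate. Those that fell past the limit were 10, but 6 with total counts only and 9 without DMSO replicate 2, where POLR2L was at -0.996. Partner genes that rose were 3 with at least 10 counts in every sample, 2 with counts divided by 2, 0 with no count filter, 6 with total counts only and 0 to 3 with each library left out. The log2 fold change of POLR1D was 0.20 with total counts only, 0.026 with counts divided by 2, 0.064 when every sample had to hold at least 10 counts and -0.048 to 0.014 with each library left out. That of POLR2M was 0.095 with total counts only and -0.28 to 0.0086 with each library left out. Partner genes that fell were 42, but 30 with total counts only or without dBET1 replicate 1 and 33 without dBET1 replicate 2. The labels do not say whether the replicate numbers pair the libraries. Across genes, same-numbered libraries showed no shared deviation (correlation -0.0072), which cannot exclude a pairing. The replicate block gave 27 lower and 2 higher subunit genes and a median of -0.69. The causes of these shifts were not tested.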
